A study of Mus musculus with 2 samples.

Results

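The data concern 6 noncoding RNAs, Malat1, Neat1, Meg3, Kcnq1ot1, Gm42418 and AY036118, out of 32285 genes counted by single-nucleus RNA-seq of interscapular brown adipose tissue (BAT). They were chosen by gene symbol, with the aim of measuring the nuclear content of droplets. Gm42418 and AY036118 overlap a ribosomal RNA gene and were higher in droplets with a large mitochondrial share. The sum of the 6 is therefore not a measure of nuclear content alone. The study asked which cell populations of BAT change when the splicing factor SRSF1 is deleted in adipocytes. It made 1 library from WT mice (Srsf1 flox/flox) and 1 from KO mice (Adipoq-Cre; Srsf1 flox/flox), both 8 weeks old and both carrying the floxed alleles. The Adipoq promoter drives Cre in mature adipocytes, so the deletion is meant for adipocytes. How many animals were pooled into a library is not given in the sources used here. With 1 library per genotype no difference has a replicate check. All intervals below are exact 95% intervals for counting error only, no p-value is given, and the genotypes cannot be told apart from the 2 preparations.

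Malat1 and Neat1 are long noncoding RNAs that stay in the nucleus. Malat1 collects in nuclear speckles, where splicing factors such as SRSF1 are also stored, and the long form of Neat1 is the scaffold of paraspeckles. Meg3 and Kcnq1ot1 are transcribed from imprinted regions, each from 1 parental allele, and Kcnq1ot1 silences neighbouring genes on its own chromosome. Gm42418 and AY036118 lie over a copy of ribosomal RNA sequence, and reads assigned to them are often taken as a sign of ribosomal RNA in a library.

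The places of the 6 genes were taken from the GENCODE M21 annotation of GRCm38. Malat1 (ENSMUSG00000092341, chr19:5795690-5802672, minus strand) and Neat1 (ENSMUSG00000092274, chr19:5824708-5845478, minus strand) are neighbours with a gap of 22035 bases. Meg3 (ENSMUSG00000021268) lies at chr12:109541001-109571726 on the plus strand and has 11 annotated transcripts. Kcnq1ot1 (ENSMUSG00000101609, chr7:143203458-143296549, minus strand) runs antisense within Kcnq1, a potassium channel gene, and has 1 transcript of 93092 bases. Gm42418 (ENSMUSG00000098178, chr17:39846958-39848788, plus strand) is listed by RefSeq as a synonym of Rn18s-rs5, a ribosomal RNA pseudogene. AY036118 (ENSMUSG00000105361, chr17:39847113-39848035, minus strand) lies wholly inside Gm42418 on the other strand, and both overlap the ribosomal RNA gene CT010467.1. RefSeq places its AY036118 elsewhere, at chr17:39848112-39898385, and the GENCODE gene is the one counted here, by its identifier. The sources used here do not say whether the counting used strand. UMIs of Gm42418 and AY036118, and those of Kcnq1ot1 and Kcnq1, may therefore not be separable where the genes overlap. Annotated genes on the opposite strand also overlap Meg3 (Gm26906, 3096 bases) and Malat1 (Gm37376, 453 bases).

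The libraries were primed on poly(A), and the sequences that bear on priming are shown first, as GENCODE M21 gives the transcripts. The long transcripts Malat1-201 and Neat1-201 share the run AAAAAGCAAAA near the 3′ end, part of an A-rich tract that is known to close a triple helix in place of a poly(A) tail, and it is in capitals in the stretches from position 6616 to 6695 and from 20692 to 20771.
Malat1-201: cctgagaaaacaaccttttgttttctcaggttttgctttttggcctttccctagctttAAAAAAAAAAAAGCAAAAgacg
Neat1-201: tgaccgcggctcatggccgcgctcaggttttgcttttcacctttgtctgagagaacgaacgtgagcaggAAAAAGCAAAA

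Searched on the transcript strand, the 11 bases AAAAAGCAAAA occurred in the last 400 bases of 143 of 122312 transcripts (0.117%). The short transcript Neat1-202, Meg3-207 and Kcnq1ot1-201 hold the polyadenylation motif AATAAA near the end, which 25.8% of 141704 transcripts hold in the last 40 bases. Malat1-201 holds it as well, at position 6962 of 6983, beyond its A-rich tract. Runs of A inside a transcript can also be primed, and Kcnq1ot1-201 had 30 runs of 8 or more, the longest of 41 bases, while Meg3-209 had 7, the longest of 16 bases. The motif is in capitals in the last 60 bases of the 3 transcripts below.
Neat1-202: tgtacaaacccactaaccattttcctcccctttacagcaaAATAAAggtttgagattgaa
Meg3-207: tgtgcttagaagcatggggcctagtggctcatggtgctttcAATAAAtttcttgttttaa
Kcnq1ot1-201: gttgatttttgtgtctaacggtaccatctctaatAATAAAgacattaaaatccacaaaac

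Gm42418-201 and AY036118-201 held neither motif in these windows. AY036118-201 is the reverse complement of positions 156 to 1078 of Gm42418-201, which is 50.4% of its length. The longest run of A in Gm42418-201 has 6 bases and is in capitals in positions 182 to 241 below, beside the same bases read from AY036118-201 (838 to 897).
Gm42418-201: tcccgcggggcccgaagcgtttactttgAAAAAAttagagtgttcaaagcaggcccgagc
AY036118-201: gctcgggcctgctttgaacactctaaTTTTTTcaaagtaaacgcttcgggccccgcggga

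After filtering, 12771 of 12846 WT and 11378 of 11495 KO droplets remained, with 79395024 and 73199531 UMIs and medians of 3428 and 4354.5 UMIs per droplet. Of all UMIs, the 6 RNAs took 6.43% in WT and 4.86% in KO. Srsf1 was at 166 UMIs per 1000000 (CPM) in WT and 68.5 CPM in KO over all droplets, and at 179.8 and 60.7 CPM in adipocyte-like droplets (log2 ratio -1.57). It was lower in KO in the 4 other main classes too, at 117.3 and 83.2 CPM in ASPC (-0.50), 133.6 and 85.5 CPM in endothelial (-0.65), 99.5 and 64.7 CPM in immune (-0.62) and 139.0 and 90.1 CPM in mural droplets (-0.63). The median mitochondrial share was 1.10% in WT and 0.0489% in KO, and 52 barcodes occurred in both libraries. Droplets were assigned to classes by sums of marker UMIs above background, which called 9559 WT and 9325 KO droplets. The calls held 5774 WT and 2547 KO adipocyte-like, 400 and 1916 adipose stem and progenitor cell-like (ASPC), 2394 and 1141 endothelial-like, 574 and 3480 immune-like, and 293 and 174 mural-like droplets. Of all kept droplets, called or not, 2307 in WT and 1438 in KO lay near a limit of the call. No listed marker was among the 10 leading genes of the WT adipocyte class, although its own markers summed to 8809 CPM against 332 CPM for those of ASPC. In all 5 classes the leading genes included none of another class. The 10 leading genes of the adipocyte class shared only Ctcflos between the libraries, so the adipocyte ratios below compare droplets that differ in other genes too, and adipocytes were not split further.

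Over all droplets, Meg3 was 4.44-fold higher and AY036118 6.16-fold lower in KO, while the other 4 RNAs differed by less than 2-fold on summed UMIs. Gm42418 was also past 2-fold lower when droplets were thinned to 1000 UMIs or had equal weight (log2 ratios of -1.09 and -1.28). Among 18258 genes with at least 50 UMIs, 22.7% were more than 2-fold higher and 18.1% more than 2-fold lower in KO, so 1 of 6 in each direction was not more than the background, and 2 of 6 either way stood against 40.8%. In adipocytes the 2 RNAs past 2-fold were again Meg3 and AY036118, against 20.8% higher and 17.1% lower of 15997 genes, or 37.9% either way. In ASPC, endothelial, immune and mural droplets 2 of 6, Gm42418 and AY036118, were more than 2-fold lower, where 11.1%, 12.7%, 12% and 10% of genes were, and 16.4%, 16.4%, 17.4% and 13.9% of genes passed 2-fold either way. Meg3 was more than 2-fold higher in immune droplets, as were 5.3% of genes, and no RNA of the 6 was in the other 3, where 5.27%, 3.69% and 3.86% of genes were. The median log2 ratio of all genes was 0.12 over all droplets and in adipocytes, and between -0.04 and 0.06 in the other 4 classes. The ratios below are as measured and do not subtract this shift.

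**Figure D1:**
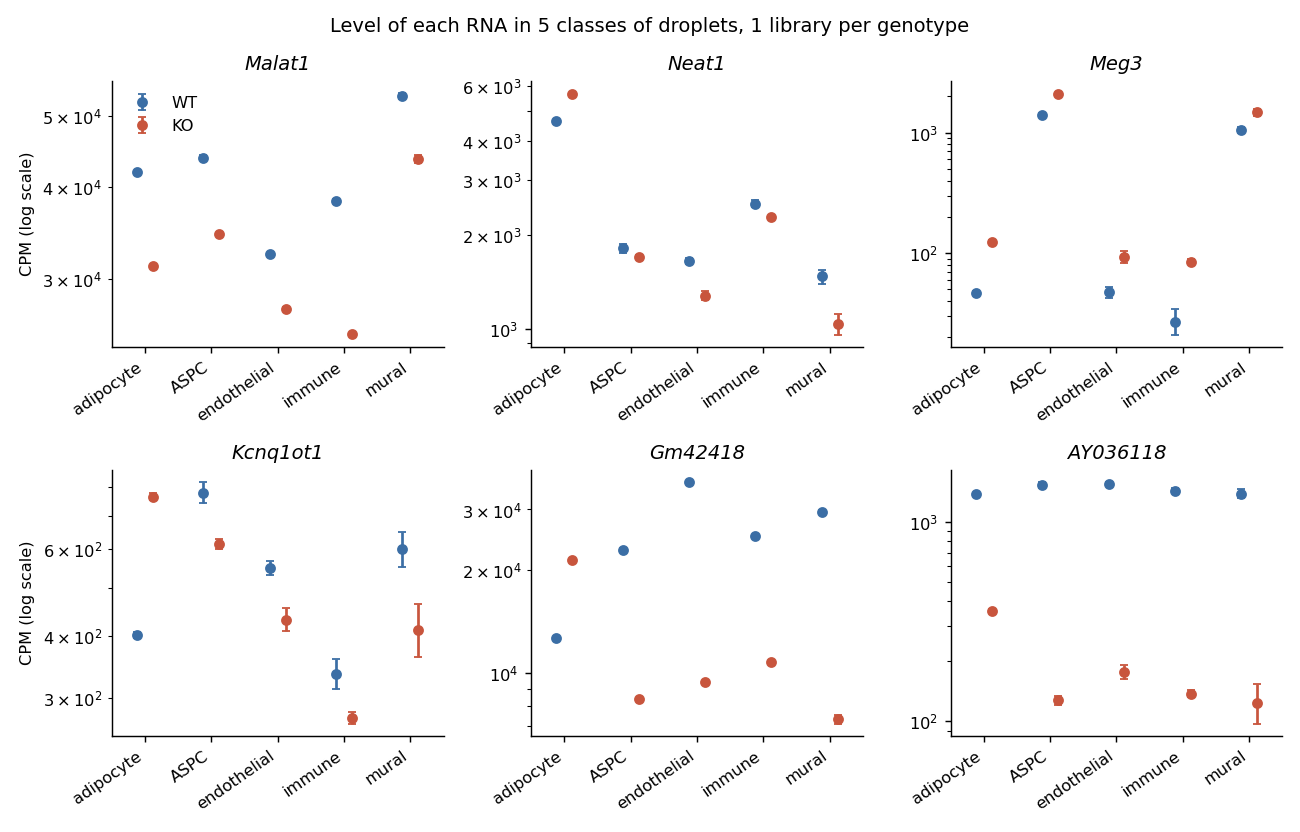
UMIs per 1000000 (CPM, log scale) of the 6 RNAs in 5 classes of droplets, with WT in blue and KO in red and bars for the exact 95% counting interval. Malat1 and AY036118 were lower and Meg3 was higher in KO in every class, while Neat1, Kcnq1ot1 and Gm42418 were higher in KO in adipocytes and lower in the other 4 classes.

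Malat1 was lower in KO in all 5 classes. Over all droplets its level was 40861 CPM in WT and 29189 CPM in KO, a log2 ratio of -0.49 (interval -0.49 to -0.48). In adipocytes it was 41927 CPM in WT and 31193 CPM in KO (log2 ratio -0.43), and in ASPC 43874 and 34508 CPM (-0.35). The widest gap of the 5 was in immune droplets, at 38236 and 25223 CPM (-0.60), and the narrowest in endothelial droplets, at 32414 and 27297 CPM (-0.25). Mural droplets held the highest level of these classes in both libraries, with 53231 CPM in WT and 43643 CPM in KO. If each class had kept its WT level and only the mix of classes had been that of KO, the log2 ratio would have been -0.01, close to 0. Split by class and total UMIs, Malat1 was lower in KO in 22 of 24 combinations. The 2 exceptions were the adipocyte and endothelial droplets with 500 to 1000 UMIs, and the WT droplets of that range began at 750 UMIs.

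The spread of Malat1 over single droplets was wider in KO adipocytes. Among adipocyte droplets with at least 1000 UMIs, Malat1 took a median of 4.05% of the UMIs in WT, with the middle 50% of droplets between 3.48% and 4.64%. In KO the median was 2.78% and the middle 50% lay between 1.98% and 3.96%. The upper end of the KO range overlapped the lower end of the WT range, and the 95th percentile was higher in KO, at 6.19% against 5.70% in WT. The 5th percentile was 1.16% in KO and 2.64% in WT.

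**Figure D2:**
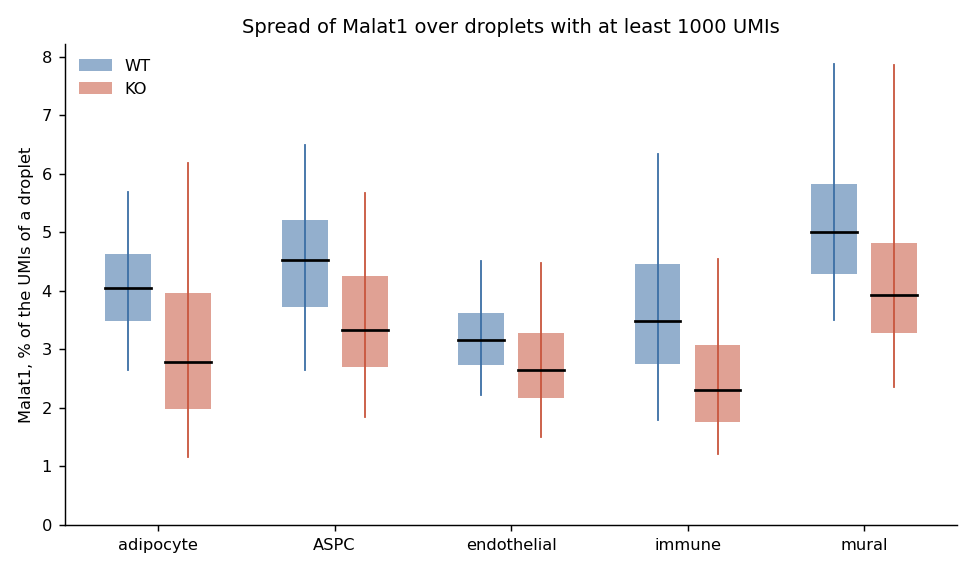
Share of each droplet's UMIs that were Malat1 (%), by class, for droplets with at least 1000 UMIs, with WT in blue and KO in red. Boxes span the middle 50% of droplets, black lines are medians and thin lines run from the 5th to the 95th percentile; the KO medians lie below the WT medians in all 5 classes.

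Droplets with less than 1% Malat1 were found mainly in the KO library. Of droplets with at least 1000 UMIs, 6 of 11054 in WT (0.0543%, interval 0.0199% to 0.118%) and 228 of 10443 in KO (2.18%, interval 1.91% to 2.48%) were under 1%. In adipocytes the counts were 0 of 5461 in WT and 85 of 2471 in KO (3.44%), and a count of 0 allows up to 0.0675% by the exact binomial interval. In KO immune droplets the count was 59 of 3382 (1.74%), and among KO droplets with too few markers for a class it was 44 of 200 (22%). The low-Malat1 KO droplets were not shallow, with a median of 6294 UMIs against 4709 in the others, and the median mitochondrial share was 0.0486% against 0.0452%. Neat1 was also lower in them, at 2016 CPM against 3492 CPM in the other KO droplets.

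Neat1 was highest in adipocytes in both libraries, and of the 5 main classes only adipocytes held more of it in KO. Its level there was 4628 CPM in WT and 5654 CPM in KO, a log2 ratio of 0.29 (interval 0.28 to 0.30). It was lower in KO in ASPC (1814 and 1696 CPM, -0.10), in immune droplets (2515 and 2279 CPM, -0.14), in endothelial droplets (1650 and 1277 CPM, -0.37) and in mural droplets (1472 and 1034 CPM, -0.51). Outside the main classes it was higher in KO in erythroid-like droplets (0.63, interval 0.33 to 0.93) and in droplets with too few markers (0.18, interval 0.11 to 0.25). Over all droplets it was 3956 CPM in WT and 3441 CPM in KO (-0.20). The direction over all droplets was thus not that of adipocytes, and with WT levels and the KO class mix alone the log2 ratio would have been -0.31. By rising range of total UMIs, the ratio over all droplets was -0.46, -0.22, 0.34 (interval 0.30 to 0.37), -0.39, -0.26, -0.14 and 0.003. Within adipocytes Neat1 was higher in KO in all 7 ranges of total UMIs, by log2 ratios of 0.10 to 0.79. After the shift of the median gene was taken off, the adipocyte ratio was 0.17.

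Free RNA from adipocytes can carry Neat1 into other droplets, so Neat1 was also set against the adipocyte markers. In WT there were 0.525 Neat1 UMIs per adipocyte marker UMI in adipocytes, 0.467 in endothelial and 0.526 in mural droplets, all close to each other. In ASPC the value was 0.948 and in immune droplets 1.69. In KO it was 0.698 in adipocytes, 0.578 in endothelial, 0.596 in mural, 1.71 in ASPC and 2.48 in immune droplets. In endothelial and mural droplets Neat1 therefore stood in nearly the same proportion to adipocyte markers as in adipocytes, or lower, and in ASPC and immune droplets it exceeded that proportion in both libraries. How much of the endothelial and mural level came from free RNA was not tested.

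Few genes of paraspeckle proteins passed 2-fold in KO adipocytes, and their median ratio was that of all genes. In adipocytes, 1 of 15 tested was more than 2-fold higher and 0 were more than 2-fold lower in KO, against the 20.8% and 17.1% of all genes, and their median log2 ratio was 0.12, the same as that of all genes. The 1 gene was Dazap1, an RNA-binding protein, at 119.5 CPM in WT and 239.4 CPM in KO (1.00). The core paraspeckle genes Nono (44.9 and 48.0 CPM, 0.09) and Sfpq (333 and 379 CPM, 0.19) differed little. Hnrnph3 was the lowest of the list at 146.8 and 95.8 CPM (-0.62). Of 15 nuclear speckle genes, 0 were more than 2-fold higher and 2 more than 2-fold lower in KO adipocytes, and the median log2 ratio was -0.26. The 2 were Srsf1 itself (-1.57) and Srsf2, another SR splicing factor, at 250 CPM in WT and 90.9 CPM in KO (-1.46). Of the 4 speckle genes above 0, the highest were Rbm25 (407 and 619 CPM, 0.60) and Srrm1 (139.8 and 211 CPM, 0.60), both of which encode splicing cofactors. In ASPC, endothelial, immune and mural droplets no tested gene of either list passed 2-fold.

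Genes around Malat1 and Neat1 on chromosome 19 had ratios of their own. Of 8 neighbours tested in adipocytes, 1 was more than 2-fold higher in KO, Frmd8, at 7.09 CPM in WT and 14.2 CPM in KO (1.00, interval 0.78 to 1.22), and 0 were more than 2-fold lower, against 20.8% and 17.1% of all genes. Ehbp1l1 was at 62.7 and 79.4 CPM (0.34), and Ltbp3, which encodes a binding protein for latent TGF-beta, was at 103.0 and 104.3 CPM (0.02). The lowest of the 8 was Znhit2 (-0.45, interval -1.36 to 0.38).

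**Figure D3:**
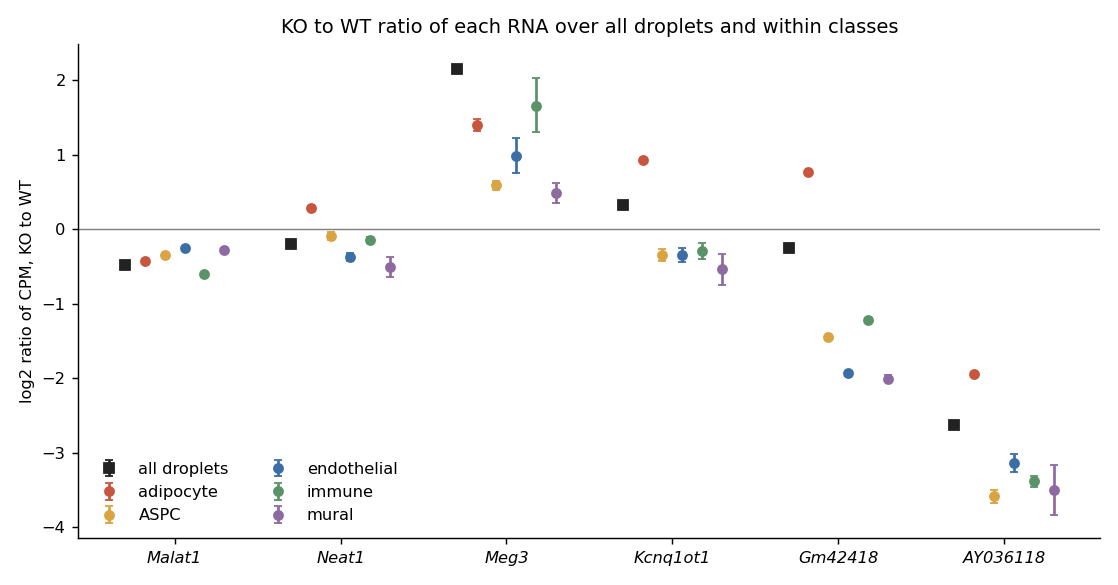
Log2 ratio of CPM, KO to WT, for the 6 RNAs over all droplets (black squares) and within 5 classes (coloured circles), with bars for the exact 95% counting interval. The ratio of Neat1, Kcnq1ot1 and Gm42418 lies above 0 in adipocytes and below 0 in the other 4 classes, and AY036118 lies at -1.95 or below in all 5 classes.

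Meg3 marked ASPC and mural droplets in both libraries and was higher in KO in each class. In ASPC its level was 1402 CPM (interval 1351 to 1456) in WT and 2104 CPM (2078 to 2131) in KO, a log2 ratio of 0.59. In mural droplets it was 1059 and 1481 CPM (0.48). In adipocytes it was 47.0 and 124.0 CPM (1.40), in endothelial droplets 47.3 and 93.7 CPM (0.99), and in immune droplets 26.97 and 85.0 CPM (1.66). The ratio was higher than 0 in all 24 combinations of class and total UMIs. Over all droplets it was 122 and 542 CPM (2.15), and WT levels with the whole KO mix of classes would have given 1.32. More ASPC in the KO tissue and a higher yield of their nuclei cannot be told apart.

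In the classes with little Meg3, its level was set against that of the ASPC markers. Meg3 UMIs per ASPC marker UMI were 0.173 in WT ASPC, 0.142 in WT adipocytes, 0.103 in WT immune and 0.0783 in WT endothelial droplets. In KO they were 0.217 in ASPC, 0.253 in adipocytes, 0.209 in immune and 0.143 in endothelial droplets. Mural droplets, which hold Meg3 themselves, had 1.43 in WT and 1.60 in KO. The share of droplets with at least 1 Meg3 UMI, after thinning to 1000 UMIs, was 62.2% and 74.9% in ASPC but 3.31% and 6.65% in immune and 2.86% and 6.88% in adipocyte droplets. What part free RNA had in the low shares was not tested. Without thinning the shares were 78.8% and 90.1% in ASPC, 7.84% and 19.6% in immune and 12.5% and 24.1% in adipocyte droplets.

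Other genes of the Dlk1-Meg3 region had ratios near 0 or below it in ASPC, while those tested in adipocytes were higher in KO. Rian, a noncoding RNA transcribed downstream of Meg3, was at 558 CPM in WT and 599 CPM in KO in ASPC (0.10, interval 0.01 to 0.20), and Mirg, a microRNA host, at 76.9 and 79.2 CPM (0.04). Rtl1, a retrotransposon-derived gene expressed from the other parental allele, was at 26.8 and 4.80 CPM in ASPC (-2.48, interval -3.05 to -1.91). It was the only 1 of 4 tested that passed 2-fold there, where 11.1% of 11982 genes were more than 2-fold lower. The highest in ASPC was Begain, on 7 and 46 UMIs (0.16). In adipocytes all 3 tested were higher in KO. These were Rian at 19.0 and 31.4 CPM (0.72), Mirg at 2.77 and 4.67 CPM (0.75) and Begain on 23 and 28 UMIs (1.53). ASPC markers were also higher in KO adipocytes, at 491 CPM against 332 CPM in WT. The part of free RNA in these low adipocyte levels was not tested. Rian was also higher in KO in endothelial (0.66) and immune droplets (0.59), and near 0 in mural droplets (-0.04). Over all droplets the median log2 ratio of the 4 tested was 1.25, with Rtl1 lower in KO (-0.82).

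Kcnq1ot1 was higher in KO adipocytes and lower in KO in the other 4 classes. In adipocytes it was 403 CPM (interval 397 to 408) in WT and 765 CPM (754 to 777) in KO, a log2 ratio of 0.93. In ASPC it was 779 and 614 CPM (-0.34), in endothelial droplets 549 and 432 CPM (-0.34), in immune droplets 336 and 274 CPM (-0.29) and in mural droplets 600.3 and 413 CPM (-0.54). In adipocytes 6 of 7 ranges of total UMIs were higher in KO, the exception being 500 to 1000 UMIs (-0.44, interval -1.36 to 0.38). The ratio was below 0 in 15 of the 17 combinations of the other classes, with an interval wholly below 0 in 9. Over all droplets it was 0.32. By rising range of total UMIs it was 0.13, 0.19, -0.33 (interval -0.40 to -0.27), 0.38, 0.45, 0.41 and 0.33.

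Of 8 genes tested beside Kcnq1ot1 in adipocytes, 2 were more than 2-fold higher and 1 more than 2-fold lower in KO, near the 20.8% and 17.1% of all genes. Cdkn1c, a cell cycle inhibitor, was at 3.31 CPM in WT and 0.50 CPM in KO on 173 and 11 UMIs (-2.73, interval -3.76 to -1.85). Slc22a18, a transporter gene, was at 0.42 and 1.41 CPM on 22 and 31 UMIs (1.74, interval 0.91 to 2.60), and Tspan32, a tetraspanin gene, on 35 and 38 UMIs (1.37). Kcnq1, the host of the antisense RNA, was at 6.15 and 9.48 CPM (0.62, interval 0.37 to 0.88). Immune markers were also higher in KO adipocytes, at 636 CPM against 209 CPM in WT, and endothelial markers were lower, at 202 CPM against 780 CPM. Cdkn1c was at 32.9 CPM in WT and 21.7 CPM in KO endothelial droplets. Kcnq1 was at 25.4 CPM in WT and 105.5 CPM in KO immune droplets, and at 40.3 and 58.8 CPM in endothelial droplets. The part of these other classes in the low counts was not tested.

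Gm42418 had the widest range of class ratios of the 6 RNAs, from -2.01 to 0.76. In adipocytes it was 12641 CPM in WT and 21445 CPM in KO, a log2 ratio of 0.76. In ASPC it was 22893 and 8400 CPM (-1.45), in immune droplets 25130 and 10763 CPM (-1.22), in endothelial droplets 35975 and 9405 CPM (-1.94) and in mural droplets 29473 and 7335 CPM (-2.01). Adipocytes thus held the lowest level of the 5 classes in WT and the highest in KO. They were also the deepest class, with medians of 6837.5 UMIs in WT and 6484 UMIs in KO. The other 4 classes had medians of 2223 to 3969.5 UMIs in WT and 2124 to 4886 UMIs in KO. The part of depth in this order of classes was not tested. Over all droplets it was 17461 and 14647 CPM (-0.25), but -1.28 as a mean over droplets, -1.09 with droplets thinned to 1000 UMIs, -0.91 with equal weight on each range of total UMIs, -0.62 with a stricter fixed filter and -0.067 with no filter. When each adipocyte droplet had equal weight in place of each UMI, the adipocyte ratio was -0.011. Among adipocyte droplets with at least 1000 UMIs, the median share of Gm42418 was 1.46% in WT and 2.20% in KO. The 95th percentile was 7.42% in WT and 5.31% in KO.

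The level of Gm42418 fell with the total UMIs of the droplet in WT and far less in KO. From the lowest to the highest range of total UMIs the WT level was 94541, 66614, 35752, 16827, 11957, 8078 and 5249 CPM. The KO level was 34226, 21366, 14555, 13768, 14151, 14331 and 15210 CPM, which is nearly flat from 2000 UMIs upwards. The log2 ratio was -1.47 in the lowest range, crossed 0 between the ranges that start at 4000 and 8000 UMIs, and was 1.53 in the highest. Within adipocytes it ran from -1.58 to 1.86 over the same ranges, and in the other 4 classes it was below 0 in 17 of 17 combinations. Droplets without enough markers for a class, which had medians of 912 UMIs in WT and 775 UMIs in KO, held 85341 and 24880 CPM.

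**Figure D4:**
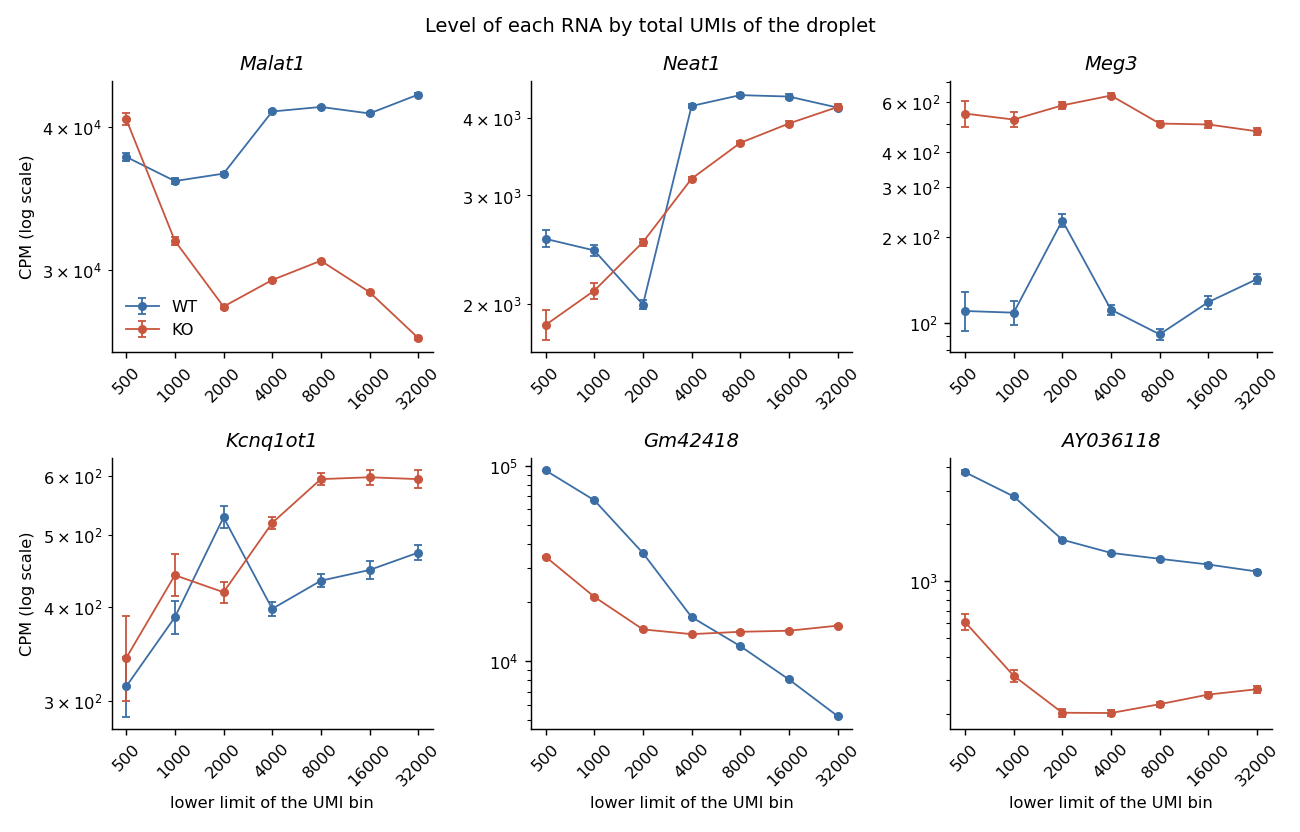
CPM (log scale) of the 6 RNAs by total UMIs of the droplet, given as the lower limit of each range, with WT in blue and KO in red and bars for the exact 95% counting interval. Gm42418 falls from 94541 to 5249 CPM in WT and the lines cross at about 8000 UMIs, while Malat1 in KO lies below WT in the 6 ranges from 1000 UMIs upwards.

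Gm42418 was higher in droplets with a larger mitochondrial share in both libraries, while Malat1 was not. In WT droplets with a mitochondrial share of 0.1% to 0.5% Gm42418 was at 9272 CPM, and in those with 5% to 10% it was at 77892 CPM. Among WT droplets of 1000 to 2000 UMIs alone it was 44763 CPM at 0.5% to 1% and 91682 CPM at 5% to 10%. In KO it was 13415 CPM at 0% to 0.1% and 71672 CPM at 5% to 10%. Malat1 was at 43633 and 32098 CPM in the same WT droplets and at 29551 and 18973 CPM in the same KO droplets. At 1000 to 2000 UMIs, however, Malat1 showed no steady fall. It was 35307, 35798, 36059 and 31166 CPM in WT from 0.5% to 10%, with 86 droplets in the last group, and 31834, 31785, 35275, 31570 and 26778 CPM in KO from 0% to 5%, with 38 droplets in the last. The sum of 15 cytoplasmic messenger RNAs moved with Gm42418, from 637 to 4749 CPM in WT and from 654 to 12832 CPM in KO.

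Erythroid-like droplets, whose mature cells lack a nucleus, were looked at separately. There were 43 in WT and 33 in KO, with median mitochondrial shares of 4.60% and 1.37%. Gm42418 was at 64508 CPM in WT and 65338 CPM in KO (0.02, interval -0.03 to 0.07), above the level of all 5 main classes in both libraries. These droplets were shallow, with medians of 1209 and 941 UMIs, and all WT droplets of 500 to 2000 UMIs held 66614 to 94541 CPM, so the WT level was not above that of its depth. In KO such droplets held 21366 to 34226 CPM. Malat1 was at 28021 and 20155 CPM, below the 5 main classes in both, and was not absent from them.

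AY036118 was lower in KO in every class and in every range of total UMIs. Its WT level was nearly the same in the 5 classes, from 1379 CPM in adipocytes to 1560 CPM in endothelial droplets. In KO it was 357 CPM in adipocytes (log2 ratio -1.95), 177.2 CPM in endothelial, 137.8 CPM in immune, 127.9 CPM in ASPC and 123.3 CPM in mural droplets (log2 ratios of -3.14 to -3.59). After thinning to 1000 UMIs, 77.2% of WT and 29.3% of KO adipocyte droplets held at least 1 UMI of it, and 78.8% of WT and 11.9% of KO immune droplets. The mitochondrial share, at 8886 CPM of all WT UMIs and 981 CPM of all KO UMIs, was lower in KO as well, and its part in the ratio of AY036118 was not tested.

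The 2 overlapping RNAs did not keep a fixed proportion between the libraries. There were 12.2 Gm42418 UMIs per AY036118 UMI in WT (interval 12.1 to 12.3) and 63.0 in KO (62.0 to 64.0). In WT the value ran from 9.17 in adipocytes to 23.1 in endothelial droplets, and from 25.2 in the droplets with the fewest UMIs to 4.67 in those with the most. In KO it stayed between 53.1 and 78.1 over the 5 classes and between 56.2 and 71.8 over the 7 ranges of total UMIs. No class or range of WT reached the lowest KO value.

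**Figure D5:**
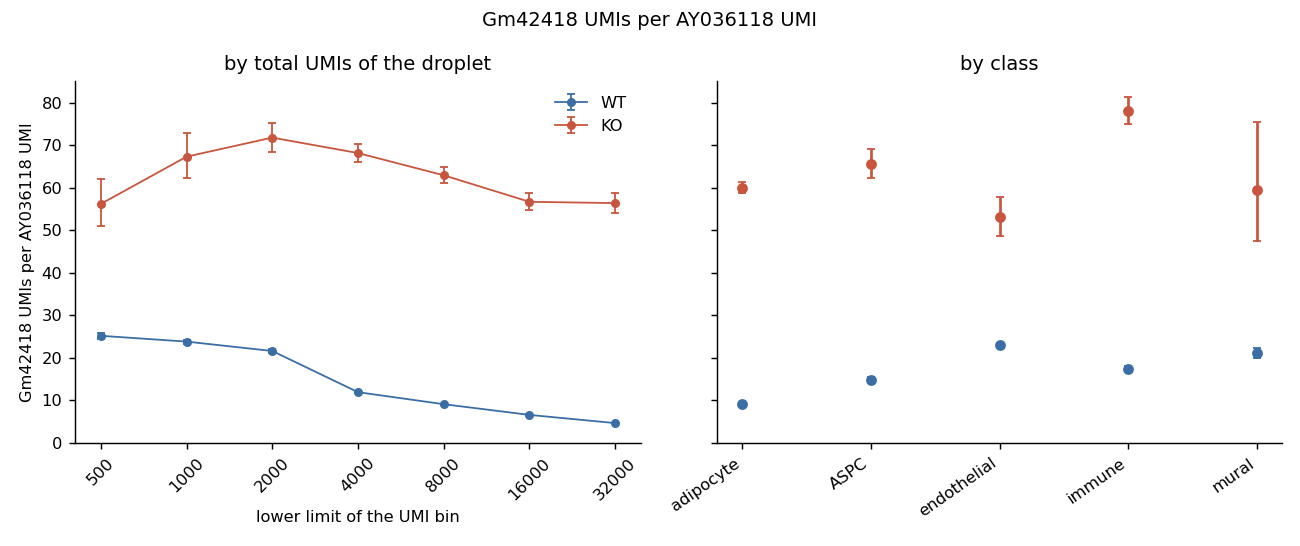
UMIs of Gm42418 per UMI of AY036118 by total UMIs of the droplet (left, lower limit of each range) and by class (right), with WT in blue and KO in red and bars for the exact 95% counting interval. WT values lie between 4.67 and 25.2 and KO values between 53.1 and 78.1.

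Other noncoding RNAs of the nucleus, listed apart from the 6, were mixed in their ratios. In adipocytes 3 of 18 tested were more than 2-fold higher and 1 more than 2-fold lower in KO, not more than the 20.8% and 17.1% of all genes, and the median log2 ratio was 0.24 against 0.12 for all genes. Pvt1, the neighbour of Myc, was at 39.8 CPM in WT and 512 CPM in KO (3.69), and was also higher in ASPC (263 and 329 CPM, 0.32), endothelial (42.6 and 120.0 CPM, 1.495), immune (229 and 679 CPM, 1.57) and mural droplets (61.4 and 170.7 CPM, 1.47). Snhg11, a small nucleolar RNA host, was at 16.6 and 104.4 CPM in adipocytes (2.65). Gm26917 changed direction between classes as Gm42418 did, with 2137 and 6826 CPM in adipocytes (1.68), 2131 and 1052 CPM in ASPC (-1.02) and 1944 and 1082 CPM in immune droplets (-0.84). Over all droplets, however, Gm26917 was higher in KO (0.77) and Gm42418 lower (-0.25). Snhg14, an imprinted RNA, was lower in KO at 43.5 and 11.4 CPM in adipocytes (-1.93). It was also lower in KO in ASPC (-1.54), endothelial (-1.90), immune (-2.18) and mural droplets (-1.41, on 25 and 6 UMIs).

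Cytoplasmic messenger RNAs were listed for comparison with the nuclear ones. In adipocytes 1 of 15 was more than 2-fold higher, B2m at 39.5 and 111.3 CPM (1.49), and 4 were more than 2-fold lower in KO, with Gapdh, a glycolytic enzyme, the lowest at 70.3 and 19.3 CPM (-1.86), against 20.8% and 17.1% of all genes. The median log2 ratio was -0.48. In ASPC, immune and mural droplets 6 of 15, 5 of 15 and 5 of 12 were more than 2-fold lower and 0 higher, against 11.1%, 12% and 10% of all genes lower. In endothelial droplets 2 of 15 were lower, near the 12.7% of all genes, 1 was higher (Tmsb10), and the median log2 ratio was -0.10. Summed over all droplets the list was at 957 CPM in WT and 920 CPM in KO.

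The genes most like each of the 6 were found by Pearson correlation of log2(CPM + 1) over the 10 combinations of library and class, among 15157 genes. The combinations of a library share its free RNA and depth, so the values describe and carry no test. Malat1 was most like Gm11906, Col4a5 and 2610027K06Rik (0.95 to 0.96), and Neat1 most like Nadk, Flad1 and 5430405H02Rik (0.97 to 0.98). Meg3 was most like B830012L14Rik, Rian and Sobp (0.99 each), and Kcnq1ot1 most like 8430429K09Rik, Gm17354 and Eif2d (0.91 to 0.94). Gm42418 was most like Lars2, Cmss1 and Qpctl (0.94 to 0.96). AY036118 was most like Cox7b and Ndufb9, nuclear genes for subunits of the respiratory chain, and Idh3g, a gene for a mitochondrial enzyme (0.99 each). Cox7b was at 83.9 to 127.1 CPM in the 5 WT classes and at 15.8 to 34.6 CPM in the 5 KO classes. Between members of the 6 the value was 0.84 for Gm42418 and AY036118 and -0.15 for Malat1 and Neat1.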

How the data were processed

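Nuclei of interscapular BAT from WT and KO mice were sequenced with droplet-based 3′ chemistry, 1 library per genotype. The deposited values are raw UMI counts, 1 matrix of genes by droplets for each library. Reads were aligned to GRCm38 with STAR and counted with Cell Ranger, version 5.0.0 per the file headers. The methods of the paper name an earlier version of Cell Ranger. The submitters' notes also list Seurat 3.1.1. Whether intronic reads were counted, which would change the level of long unspliced RNAs, is not given in the sources used here.

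A droplet was kept if 200 or more genes were detected, if no more than 10% of its UMIs were mitochondrial, and if log UMIs and log genes lay no further than 3 median absolute deviations from the median droplet. Of 76 markers in 8 lists, the UMIs of each list were reduced by its background rate in droplets called as other classes. A class needed at least 3 net UMIs, 2 different markers and 2 times the net sum of the next class; droplets with markers of several classes were set aside, and no doublet caller was run. The call was set after the data had been seen, and the members and lists were chosen with earlier results of these data known.

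UMIs were summed by class or by total UMIs (lower limits 500, 1000, 2000, 4000, 8000, 16000 and 32000) and scaled to CPM. Intervals are exact Poisson for levels, exact conditional binomial for ratios and exact binomial for shares. Genes with at least 50 UMIs over both libraries were compared, with a 0 counted as 3 UMIs. Thinning to 1000 UMIs left out 1717 WT and 935 KO droplets. Named were the 6 RNAs, up to 4 genes per list by the lowest and highest ratio, and 3 genes most like each RNA; Nono, Sfpq, Ehbp1l1, Ltbp3, Kcnq1 and Gm26917 were picked after their values were seen. Python 3.11.15, numpy 2.4.6, scipy 1.17.1 and pandas 2.3.3 were used, and the calculations were tested on simulated data. Alternatives covered the filter, scaling, droplet weight, depth and class call; a call with own markers at 2 times background and leaving out shared barcodes were added after seeing the data. Bulk RNA-seq, protein and imaging data of the study were not analysed here.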

Additional observations from a re-analysis of the deposited data

Results flagged for a closer look

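For 3 of the 6 RNAs the KO to WT ratio had 1 sign in adipocytes and the opposite sign in each of the other 4 classes. With 1 library per genotype, none of these differences between classes was tested. For Neat1 the log2 ratio was 0.29 in adipocytes, -0.10 in ASPC, -0.37 in endothelial, -0.14 in immune and -0.51 in mural droplets. For Kcnq1ot1 it was 0.93 in adipocytes, -0.34 in ASPC, -0.34 in endothelial, -0.29 in immune and -0.54 in mural droplets. For Gm42418 it was 0.76 in adipocytes, -1.45 in ASPC, -1.94 in endothelial, -1.22 in immune and -2.01 in mural droplets. The adipocyte value of Gm42418 was -0.011 as a mean over droplets. By total UMIs it was above 0 in 4 of 7 ranges and below 0 in 3, from -1.58 to 1.86.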

How the results depend on the processing

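With 1 library per genotype, only counting error and the settings below could be examined. Differences between animals and preparations also bear on the ratios and could not be estimated. None of the 6 ratios over all droplets changed sign under the alternatives run, although most moved by more than their counting interval. Within single ranges of total UMIs, however, Malat1, Neat1, Kcnq1ot1 and Gm42418 did not keep the same sign throughout. The log2 ratios of Malat1, Neat1, Meg3, Gm42418 and AY036118 were -0.50, -0.19, 2.02, -0.067 and -2.50 with no filter on droplets and -0.43, -0.25, 2.30, -0.62 and -2.83 with fixed limits. The ratios of Malat1, Neat1, Meg3, Kcnq1ot1, Gm42418 and AY036118 were -0.52, -0.24, 2.12, 0.28, -0.29 and -2.66 with the 6 RNAs and mitochondrial genes left out of the total, and -0.61, -0.32, 2.03, 0.20, -0.38 and -2.75 when centred on the median gene. They were -0.41, -0.16, 2.11, 0.14, -1.09 and -2.99 with droplets thinned to 1000 UMIs, and -0.36, -0.17, 2.04, 0.23, -0.91 and -2.67 with equal weight on each range of total UMIs. As a mean over droplets, Malat1, Neat1, Kcnq1ot1, Gm42418 and AY036118 were at -0.35, -0.16, 0.22, -1.28 and -2.99. Of 270 values for the 30 ratios within classes, 161 stayed within their counting interval, 108 moved and 1 changed sign, Gm42418 in adipocytes at -0.011 as a mean over droplets; the cause was not tested. Leaving out barcodes found in both libraries moved 0 of 30. The share of genes past 2-fold was 37.1% with a minimum of 200 UMIs and 43.7% with none, against 40.8%. No paired analysis was possible because each genotype had 1 library.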
